A study of Mus musculus with 10 samples.

Results

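The 37 genes described here encode the enzymes and transporters of glycolysis and genes of the cellular response to low oxygen, and they were followed across mouse embryonic stem cells (ESCs) and the epiblast-like cells (EpiLCs) made from them. They were chosen by name, as genes known for these roles, and each of the 37 had 1 entry among the 22867 gene symbols of the deposited tables. By role, 9 act in glucose uptake and the first steps of glycolysis, 10 in lower glycolysis, 5 on the fate of pyruvate and lactate, 3 in oxygen sensing, and 10 are known targets of the hypoxia response. No value of these genes was listed at 0 in any library.

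The series asked how expression changes when ESCs become EpiLCs and what the homeobox gene Otx2 contributes. All 10 RNA sequencing libraries came from cultured cells of 129SV origin. EpiLC libraries, after 48 h in serum-free medium with bFGF and serum replacement, came from the Otx2-/- line (1 library), the E14 line (1) and the R1 line (2, of which 1 had activin A at 20 ng/ml and 1 had none). Whether activin A was used for E14 and Otx2-/- EpiLCs is not stated in the labels, nor which exons the Otx2 allele lacks. Otx2-/- ESCs with a doxycycline-inducible (tetON) Otx2 transgene gave 1 library with and 1 without dox, of unstated dose and duration. ESC libraries without the transgene came from the Otx2-/- line (1), E14 (1) and R1 (2 replicates). Every ESC culture, the tetON pair included, received LIF together with 0.8 µM PD0325901, which blocks MEK, and 3.3 µM CHIR99021, which blocks GSK3. No oxygen level is stated for any culture. Only the R1 ESC condition has more than 1 library, and the protocols call the cultures of a state independent biological replicates.

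Glycolysis splits glucose into pyruvate in the cytosol, and pyruvate is then either reduced to lactate and exported or oxidised in mitochondria. When oxygen is scarce, prolyl hydroxylases of the Egln family stop marking the transcription factor subunit Hif1a for destruction. Hif1a with its partner then activates genes for glucose uptake, glycolysis, lactate export, blood vessel growth and survival. The core of the DNA element it binds reads ACGTG or GCGTG. Naive ESCs are known to draw on both glycolysis and respiration, and epiblast-stage cells to rely more on glycolysis.

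The promoter windows of the 6 members whose level varied most between libraries are shown first, each as the 250 bases before the transcription start on the strand of the gene, from RefSeq on GRCm38.p6. Capitals mark the hypoxia element core, ACGTG or GCGTG, or its reverse complement CACGT or CACGC. For Vegfa, which has a pair of windows, the upstream one is shown.
Adm, chr7:110627407-110627656, plus strand: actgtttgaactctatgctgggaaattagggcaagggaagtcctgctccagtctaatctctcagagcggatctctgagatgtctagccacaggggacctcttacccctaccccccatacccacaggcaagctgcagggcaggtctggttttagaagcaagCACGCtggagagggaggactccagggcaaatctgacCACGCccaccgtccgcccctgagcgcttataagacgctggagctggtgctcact
Ddit4, chr10:59951771-59952020, minus strand: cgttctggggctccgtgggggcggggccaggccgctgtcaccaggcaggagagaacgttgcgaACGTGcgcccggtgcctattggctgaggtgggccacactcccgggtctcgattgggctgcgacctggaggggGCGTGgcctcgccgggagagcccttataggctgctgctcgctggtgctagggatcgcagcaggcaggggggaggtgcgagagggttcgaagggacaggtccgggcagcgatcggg
Egln3, chr12:54203875-54204124, minus strand: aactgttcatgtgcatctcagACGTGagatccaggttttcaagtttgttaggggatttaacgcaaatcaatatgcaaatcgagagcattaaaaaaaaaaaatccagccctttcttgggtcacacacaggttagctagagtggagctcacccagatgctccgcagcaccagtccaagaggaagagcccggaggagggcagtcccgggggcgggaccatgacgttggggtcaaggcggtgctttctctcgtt
Vegfa, chr17:46032378-46032627, minus strand: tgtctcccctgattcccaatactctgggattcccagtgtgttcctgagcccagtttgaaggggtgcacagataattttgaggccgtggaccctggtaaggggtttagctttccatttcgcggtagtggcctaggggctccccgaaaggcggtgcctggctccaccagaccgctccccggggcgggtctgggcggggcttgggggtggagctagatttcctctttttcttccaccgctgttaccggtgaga
Slc16a3, chr11:120948817-120949066, plus strand: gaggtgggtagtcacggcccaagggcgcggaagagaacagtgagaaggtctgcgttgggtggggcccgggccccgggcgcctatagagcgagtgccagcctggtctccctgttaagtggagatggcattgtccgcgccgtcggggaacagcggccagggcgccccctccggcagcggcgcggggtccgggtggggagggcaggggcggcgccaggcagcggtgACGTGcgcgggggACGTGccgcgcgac
P4ha2, chr11:54100674-54100923, plus strand: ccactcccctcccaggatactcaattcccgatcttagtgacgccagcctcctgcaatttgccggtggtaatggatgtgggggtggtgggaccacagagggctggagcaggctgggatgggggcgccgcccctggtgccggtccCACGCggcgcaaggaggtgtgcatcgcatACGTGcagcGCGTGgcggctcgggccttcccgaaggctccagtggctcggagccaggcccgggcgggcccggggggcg
The P4ha2 window held 3 cores, those of Adm, Ddit4 and Slc16a3 held 2 each, and that of Egln3 held 1. The window of Vegfa shown above held 0 cores, and its other window, which starts further into the gene at chr17:46025164-46025413, held 2.

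Windows were found for 35 of the 37 members, 49 windows in all. Slc2a3 and Ndrg1 had none. A core was present in 32 of the 35 members (91.4%), against 41.5% of all RefSeq genes. Gpi1, Tpi1 and Eno2 lacked one. Counted by window it was present in 40 of 49 (81.6%), against 12679 of all 32851 RefSeq windows of that length (38.6%) and 6200 of 10958 windows of genes that averaged at least 1 FPKM in these libraries (56.6%). Windows of the same gene overlap in Aldoa, Eno1 and Pfkm, so a core there can be counted more than once. All 9 hypoxia response genes with a window, and all 3 sensing genes, had a core. A core may overlap the E-box CACGTG, which was present in 5 of the 49 member windows (10.2%) and in 6.02% of all windows. These matches describe letters only.

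Levels are given in FPKM, fragments scaled to transcript length and sequencing depth, which allows levels to be compared between genes. The glycolytic trunk was abundant in every library. Pkm2, the pyruvate kinase gene, lay between 1371 and 2083 FPKM over the 10 libraries, Aldoa, the main aldolase, between 889.6 and 1722, and Gapdh, the dehydrogenase of the middle step, between 665 and 2060. Ldha, which makes lactate from pyruvate, lay between 779.6 and 1376 FPKM and Pgk1, which yields the first ATP, between 456 and 1074. Aldoa, Tpi1, Gapdh, Pgk1, Pgam1, Eno1, Pkm2 and Ldha have processed pseudogenes in the mouse genome, so their values are uncertain where reads were shared. The hypoxia response genes were lower and ranged more widely. Their 10 values summed to 498 FPKM in Otx2-/- EpiLC, 369 in E14 EpiLC, 819 in R1 EpiLC with activin A and 848 without it. In ESCs the same sum was 266 in Otx2-/-, 283 in E14, and 87 and 296 in R1 replicates 1 and 2, and in the tetON line it was 305 with dox and 255 without. Every EpiLC library was thus above every ESC library in that sum, and R1 ESC replicate 1 was the lowest. For E14 that order rested on Ddit4, which had 97.9 FPKM in E14 EpiLC. It had 14.9 FPKM in E14 ESC and 18.7 in R1 ESC replicate 2. Without Ddit4, E14 EpiLC would not lie above R1 ESC replicate 2 in the sum.

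**Figure D1:**
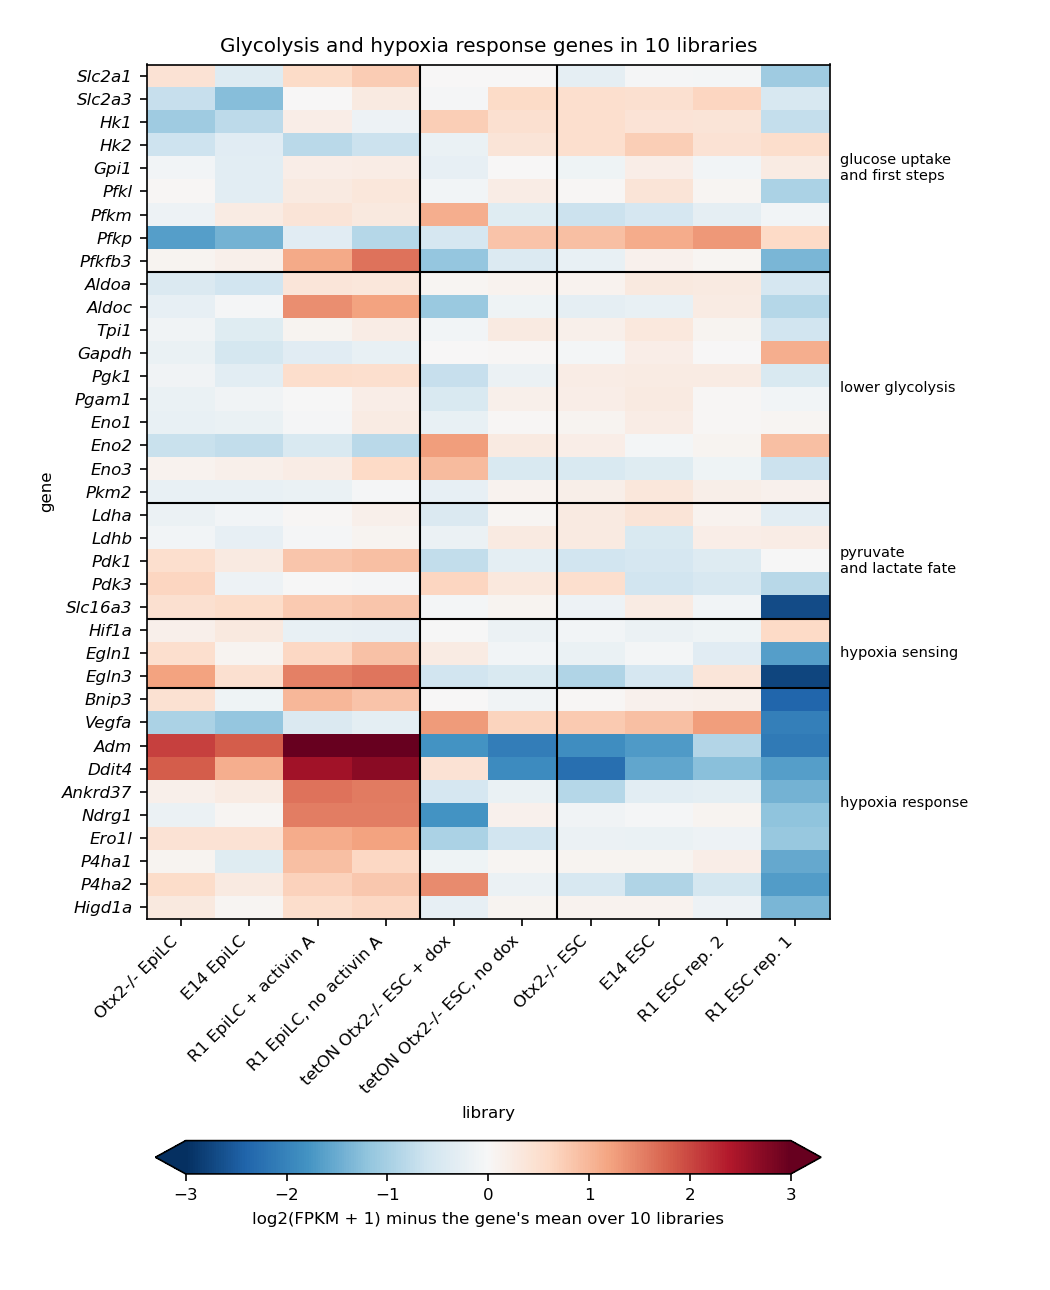
Each cell shows log2(FPKM + 1) of 1 member in 1 library minus the mean of that gene over the 10 libraries, with genes grouped by role, EpiLC libraries on the left and the tetON pair in the middle. The column of R1 ESC replicate 1 holds the lowest value of 17 of the 37 genes, and Adm and Ddit4 are high in all 4 EpiLC columns.

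Libraries differed in depth. An approximation from the value of single fragments in olfactory receptor genes gave between 6200000 fragments (E14 EpiLC) and 21000000 (Otx2-/- ESC). Marker genes, summed by list, matched the labelled states. The 9 naive pluripotency markers summed to between 166.5 and 284.6 FPKM in the 4 EpiLC libraries, against 1581 to 1846 in the 4 ESC libraries other than the tetON pair, where they summed to 636.6 with and 1592 without dox. The 6 epiblast markers summed to between 473.5 and 598.0 FPKM in EpiLC, against 52.14 to 96.4 in those ESCs. Within that list Fgf5 was low in Otx2-/- EpiLC, at 5.18 FPKM against 28.4 to 35.8 in the E14 and R1 EpiLC libraries. Markers of primitive endoderm, primitive streak, trophoblast, neural cells and fibroblasts summed to at most 19.25 FPKM per list in any library, although Dab2 (1 of 6 primitive endoderm markers) and Krt7 (1 of 5 trophoblast markers) rose in EpiLC in the test used below. The primitive endoderm sum was 3.29 to 4.38 FPKM in EpiLC and 1.73 to 3.37 in those ESCs, and its part in the results was not tested. In RNA from whole cultures, fewer cells of a type and less RNA per cell cannot be told apart. Many of the members were lower in R1 ESC replicate 1 than in the rest of the ESCs, so the comparison of ESCs is given first and results that rest on it are also given without that library.

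The R1 ESC replicates, which carry the same label, differed in many of these genes. Replicate 2 was at least 2-fold higher on the FPKM + 1 scale in 15 of the 36 members that reached 5 FPKM (all genes: 5.42%) and lower in 1, Gapdh (all genes: 6.09%). The median of the log2 ratios was 0.74 over the members and -0.22 over all genes. Of the 9 hypoxia response genes that reached 5 FPKM, 7 were higher, as were Egln1 and Egln3. There is no replicate check on this difference, which compares 1 library with 1.

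Vegfa, which encodes an angiogenic growth factor, had 30.9 FPKM in replicate 2 and 2.22 in replicate 1, a log2 ratio of 3.31. Egln3, a hydroxylase gene that is itself a hypoxia target, had 26.3 FPKM in replicate 2 and 2.15 in replicate 1. Slc16a3, which encodes the lactate exporter MCT4, had 83.2 and 12.8 FPKM in replicates 2 and 1. The single lower gene, Gapdh, had 965.6 FPKM in replicate 2 and 2060 in replicate 1. Hif1a itself had 29.7 FPKM in replicate 2 and 49.9 in replicate 1, and Pdk1, an inhibitor of pyruvate oxidation, had 38.7 and 51.1. With median-ratio scaling between libraries, which brought the median over all genes to -0.03 in place of -0.22, 17 members were higher and 0 lower, and over all genes 674 were higher and 314 lower, against 496 and 557 as deposited. Quantile scaling also gave 17 members higher and 0 lower.

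Replicate 1 was outside the range of the other ESCs in most members, as it was in most of all genes. In the members it was more often below than above, and over all genes more often above. It lay below each of the other 4 ESC libraries without dox (R1 replicate 2, E14, Otx2-/- and tetON without dox) in 25 of the 36 members that averaged 1 FPKM or more (69.4%), against 28.8% of all genes. It lay above the 4 in 6 members, Gpi1, Pfkm, Gapdh, Eno2, Pdk1 and Hif1a, a share of 16.7% against 44% of all genes. Among the 25 were 8 hypoxia response genes, 6 genes of glucose uptake and first steps, 6 of lower glycolysis, 3 of pyruvate and lactate fate, and both Egln genes. The sum of its 9 naive markers, 1642 FPKM, was within the range of the other ESCs, but most of the single markers were not. Nanog, at 364.2 FPKM against at least 454.4 in the other 4, and Prdm14, at 14.45 against at least 19.68, were below. Klf4, Tbx3, Esrrb and Tfcp2l1 were above, Tbx3 at 72.02 FPKM against at most 67.73. Klf2, Zfp42 and Nr0b1 were within the range. Markers of later states also went both ways in replicate 1. The 6 primitive streak markers summed to 13.1 FPKM in replicate 1, against 4.74 to 7.34 in the other 4. Of these, Eomes had 9.31 FPKM against at most 3.18 and T 2.61 against at most 0.681, while Gsc had 0.659 against at least 1.80. The 5 trophoblast markers summed to 12.4 FPKM in replicate 1, against 16.57 to 19.25 in the other 4. Most of that sum was Tfap2c alone, at 9.67 FPKM in replicate 1 and 16.2 to 18.9 in the other 4. Elf5, Krt7 and Hand1 were below 1 FPKM in each of these libraries. The trophectoderm gene Cdx2 of that list had 2.55 FPKM in replicate 1 and at most 0.219 in the other 4. The epiblast marker Dnmt3b had 77.1 FPKM in replicate 1 and at most 48.5 in the other 4, while Dnmt3a had 9.63 and at least 10.5. Their part in the differences of the members was not tested. Its approximate depth was 11500000 fragments, against 11400000 in E14 ESC.

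EpiLCs and ESCs were compared over the 3 EpiLC and 3 ESC libraries of E14 and R1, with the line as a covariate, in limma on log2(FPKM + 1). The largest changes that passed were rises of hypoxia response genes. Of the 37 members, all of which were tested, 6 rose (9.73% of 12244 genes rose) and 2 fell (10.6% fell). The 6 were Adm, Ddit4, P4ha2 and Ero1l of the hypoxia response, Pdk1 and Pfkm. Hk2 and Pfkp, both of the first steps of glycolysis, fell. The median log2 fold change of the members was 0.57, against -0.09 over all genes. It was 1.42 for the hypoxia response, 1.21 for sensing, 0.57 for pyruvate and lactate fate, -0.08 for the first steps and -0.01 for lower glycolysis. Without R1 ESC replicate 1 these medians were smaller or lower: 0.15 for all members (-0.04 over all genes), 0.94 for the hypoxia response, 0.68 for sensing, 0.45 for pyruvate and lactate fate, -0.15 for the first steps and -0.20 for lower glycolysis.

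Adm (chromosome 7, 117771182 to 117773333 on mm9, the build of the files) encodes adrenomedullin, a vasodilator peptide. It had 16.5 FPKM in E14 EpiLC, and in R1 EpiLC 44.5 with and 51.1 without activin A, against 0.529 in E14 ESC and 0.145 and 1.72 in R1 ESC replicates 1 and 2. Its mean was 37.4 ± 18.4 FPKM in EpiLC and 0.799 ± 0.824 in ESC (SD, n = 3 each), and the log2 fold change was 4.36 with an SE of 0.42 (limma adjusted p = 0.0045). The lowest ESC value rested on about 1.7 fragments per kilobase at the approximate depth. The Otx2-/- line had 19.6 FPKM in EpiLC and 0.380 in ESC, so the states did not overlap in any line.

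Ddit4 (chromosome 10, 59412422 to 59414518 on mm9) encodes REDD1, an inhibitor of the growth kinase complex mTORC1. It had 97.9 FPKM in E14 EpiLC, and in R1 EpiLC 267.2 with and 304.6 without activin A, against 14.9 in E14 ESC and 13.8 and 18.7 in R1 ESC replicates 1 and 2. The log2 fold change was 3.59 (SE 0.33, limma adjusted p = 0.0042). The states did not overlap, the lowest EpiLC value being that of E14 and the highest ESC value that of R1 replicate 2. In Otx2-/- it had 163.8 FPKM in EpiLC and 8.77 in ESC.

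P4ha2, a subunit of the collagen prolyl hydroxylase, had 10.9 FPKM in E14 EpiLC, and in R1 EpiLC 14.9 with and 16.2 without activin A, against 4.27 in E14 ESC and 2.06 and 5.80 in R1 ESC replicates 1 and 2 (log2 fold change 1.63, SE 0.34, limma adjusted p = 0.0279). Ero1l, the oxidase that forms disulfide bonds in the endoplasmic reticulum, had 58.2 FPKM in E14 EpiLC, and in R1 EpiLC 93.4 with and 99.7 without activin A, against 37.1 in E14 ESC and 18.8 and 38.5 in R1 ESC (log2 fold change 1.41, SE 0.36, limma adjusted p = 0.0477). In both genes the states did not overlap, and R1 ESC replicate 1 was the lowest. Otx2-/- had 13.5 FPKM of P4ha2 in EpiLC and 5.998 in ESC, and 57.8 and 37.6 FPKM of Ero1l in EpiLC and ESC.

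Pdk1, a kinase that shuts off pyruvate dehydrogenase, had 62.2 FPKM in E14 EpiLC, and in R1 EpiLC 92.3 with and 96.2 without activin A, against 36.1 in E14 ESC and 51.1 and 38.7 in R1 ESC replicates 1 and 2. Its log2 fold change was 0.97 (SE 0.16, limma adjusted p = 0.0168), and in Otx2-/- it had 72.8 FPKM in EpiLC and 34.1 in ESC. Pfkm, the muscle-type phosphofructokinase, averaged 42.8 ± 1.94 FPKM in EpiLC and 28.2 ± 4.1 in ESC (SD, n = 3 each; log2 fold change 0.59, SE 0.14, limma adjusted p = 0.0361). Its values were 41.2 FPKM in E14 EpiLC, and in R1 EpiLC 44.96 with and 42.2 without activin A, against 24.1 in E14 ESC and 32.3 and 28.4 in R1 ESC replicates 1 and 2. Otx2-/- EpiLC, at 30.7 FPKM of Pfkm against 21.8 in Otx2-/- ESC, lay within the range of the other ESCs.

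Hk2, the regulated hexokinase that traps glucose in the cell, had 57.4 FPKM in E14 EpiLC, and in R1 EpiLC 41.4 with and 46.8 without activin A, against 122.3 in E14 ESC and 106.5 and 99.7 in R1 ESC replicates 1 and 2. It fell by 1.17 on the log2 scale (SE 0.13, limma adjusted p = 0.0060) and was also lower in Otx2-/- EpiLC, at 47.4 FPKM against 104.2 in Otx2-/- ESC. Pfkp, the platelet-type phosphofructokinase, had 18.0 FPKM in E14 EpiLC, and in R1 EpiLC 38.6 with and 26.9 without activin A, against 108.7 in E14 ESC and 75.2 and 123.3 in R1 ESC replicates 1 and 2. It fell by 1.88 on the log2 scale (SE 0.31, limma adjusted p = 0.0162), and in Otx2-/- it had 15.01 FPKM in EpiLC and 92.8 in ESC. Both genes were thus lower in each of the 4 EpiLC libraries than in any of the 4 ESC libraries.

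**Figure D2:**
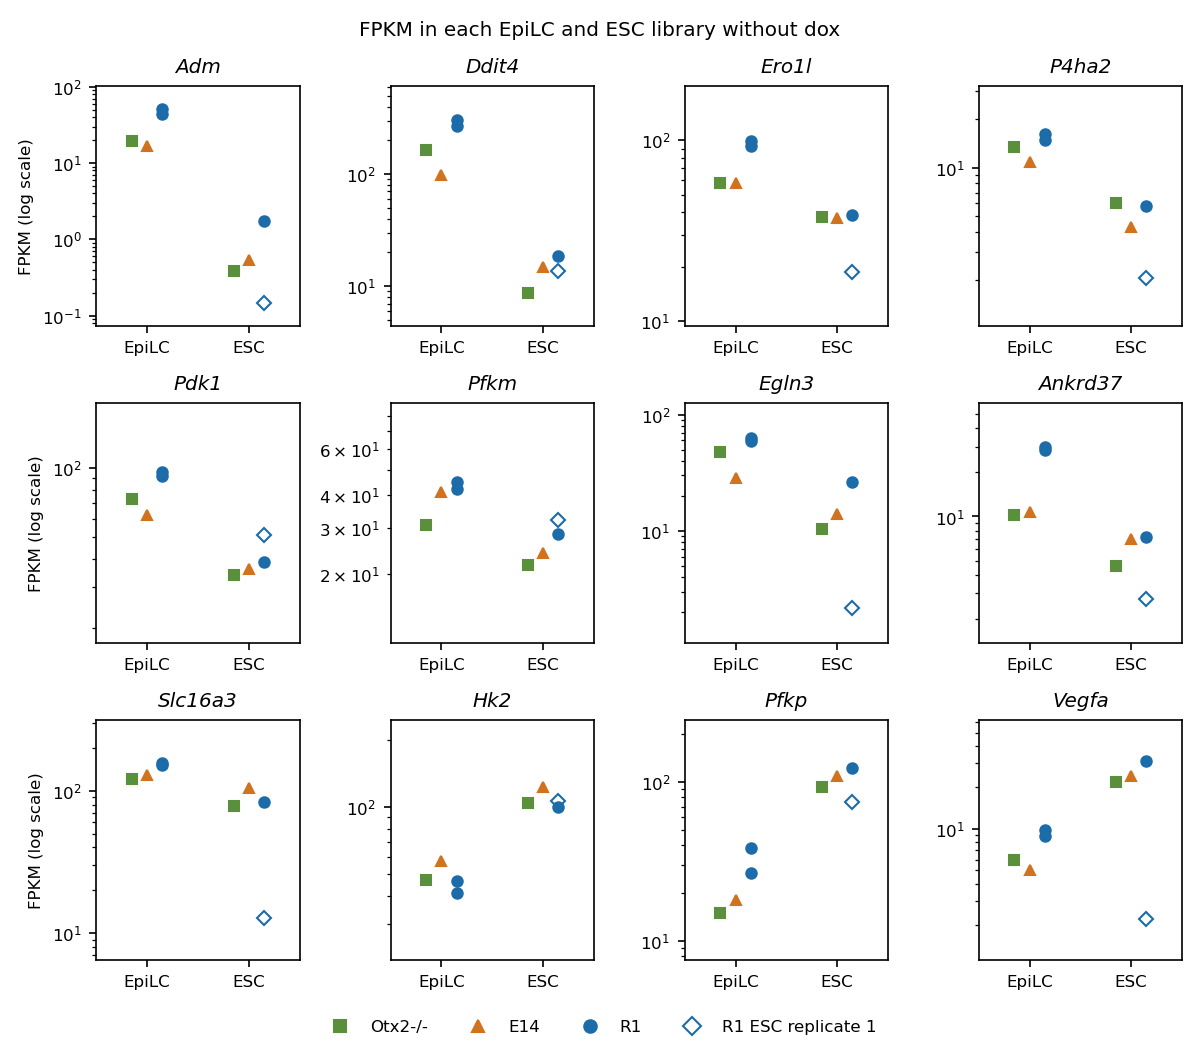
FPKM on a log axis for 12 members, 1 point per library, with EpiLC on the left and ESC on the right of each panel and the line given by marker. The states overlap only in the panels of Pfkm and Vegfa, and the open diamond of R1 ESC replicate 1 lies far below the other ESCs for Egln3, Slc16a3 and Vegfa.

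These calls differed in how far they rested on single libraries. Adm and Ddit4 passed in every one of 15 alternative fits, with limma adjusted p up to 0.0302 and 0.0275. Without E14 EpiLC or without E14 ESC, where the line term takes up the E14 library that remains and R1 alone is compared, the calls left were the rises of Adm and Ddit4 and the fall of Hk2. Without R1 EpiLC with activin A those left were Adm, Ddit4 and Pfkp, and without R1 EpiLC lacking it Adm and Ddit4. Without R1 ESC replicate 2, Pdk1, P4ha2, Adm and Ddit4 rose and Hk2 and Gapdh fell. With no filter on low values, P4ha2, Ero1l and Pfkp did not pass. Ero1l passed in 7 of the 15 alternatives, and was also lost with median-ratio scaling (limma adjusted p = 0.0525) and with no mean-variance trend (0.0501).

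R1 ESC replicate 1 was left out after its low values in these members were seen. Removing a library that stands apart lowers the spread, so the calls without it are no independent check. Leaving it out raised the count to 10 members that rose (15.4% of all genes) and 4 that fell (18.1%), over 3 EpiLC and 2 ESC libraries. The 4 further rises were those of Egln3, Ankrd37, Slc16a3 and Pdk3, and the 2 further falls those of Vegfa and Eno2. Vegfa gave the largest shift: its log2 fold change was -0.67 with all 6 libraries (SE 0.93, limma adjusted p = 0.632) and -1.81 without replicate 1 (SE 0.14, limma adjusted p = 0.00365). It had 5.00 FPKM in E14 EpiLC, and in R1 EpiLC 8.96 with and 9.84 without activin A, against 24.1 in E14 ESC and 2.22 and 30.9 in R1 ESC replicates 1 and 2, and in Otx2-/- it had 5.91 FPKM in EpiLC and 21.9 in ESC. Vegfa was thus low in the 4 EpiLC libraries and in R1 ESC replicate 1, and high in the other ESCs, which is the reverse of most other hypoxia response genes in EpiLC. Over its alternatives the limma adjusted p of Vegfa ran from 0.000397 to 0.988.

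Egln3 had 28.2 FPKM in E14 EpiLC, and in R1 EpiLC 59.2 with and 62.8 without activin A, against 13.9 in E14 ESC and 2.15 and 26.3 in R1 ESC replicates 1 and 2. Its log2 fold change was 2.15 (SE 0.86, limma adjusted p = 0.135) with all libraries and 1.09 (SE 0.10, limma adjusted p = 0.00479) without replicate 1, with 47.9 FPKM in Otx2-/- EpiLC and 10.4 in Otx2-/- ESC. Slc16a3 had 128.9 FPKM in E14 EpiLC, and in R1 EpiLC 151.8 with and 157.6 without activin A, against 104.2 in E14 ESC and 12.8 and 83.2 in R1 ESC replicates 1 and 2. Its log2 fold change was 1.56 (SE 0.76, limma adjusted p = 0.198) with all libraries and 0.64 (SE 0.16, limma adjusted p = 0.0417) without replicate 1. In both genes the fold change and its error were smaller without that library.

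Ankrd37, an ankyrin repeat gene, had 10.8 FPKM in E14 EpiLC, and in R1 EpiLC 29.7 with and 28.5 without activin A, against 7.02 in E14 ESC and 2.73 and 7.20 in R1 ESC replicates 1 and 2 (log2 fold change 1.82, limma adjusted p = 0.0546; 1.31 and 0.0382 without replicate 1). Pdk3, another pyruvate dehydrogenase kinase, averaged 29.4 ± 1.55 FPKM in EpiLC and 19.5 ± 2.45 in ESC (SD, n = 3 each; log2 fold change 0.57, limma adjusted p = 0.0509). Eno2, the neuronal enolase, was low throughout, at 1.03 FPKM in E14 EpiLC, and in R1 EpiLC 1.48 with and 0.933 without activin A, against 2.26 in E14 ESC and 5.35 and 2.57 in R1 ESC replicates 1 and 2. Its log2 fold change of -0.97 did not pass with all libraries (limma adjusted p = 0.0661). Hif1a, whose protein rather than transcript is the regulated form, differed by -0.15 (SE 0.29, limma adjusted p = 0.731) with all libraries and by 0.15 (SE 0.16, limma adjusted p = 0.505) without replicate 1. Its sign also turned with quantile scaling of all libraries.

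Of the hypoxia response genes, Bnip3, Ndrg1, P4ha1 and Higd1a passed neither with nor without replicate 1. Bnip3, a mitophagy receptor, had 94.8 FPKM in E14 EpiLC, and in R1 EpiLC 209.1 with and 188.5 without activin A, against 115.1 in E14 ESC and 19.2 and 115.6 in R1 ESC replicates 1 and 2. Ndrg1, a stress-induced gene, had 21.3 FPKM in E14 EpiLC, and in R1 EpiLC 60.8 with and 61.2 without activin A, against 20.0 in E14 ESC and 8.30 and 21.8 in R1 ESC replicates 1 and 2. In both genes the R1 EpiLC libraries were above all 3 ESC libraries of E14 and R1, and E14 EpiLC was not.

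Lower glycolysis had 0 calls in either direction among its 10 genes with all 6 libraries. An unadjusted p under 0.05 in limma was reached by 4 of them, against 4509 of 12244 over all genes. Without replicate 1, Eno2 fell (-0.69, limma adjusted p = 0.0411). Aldoa averaged 1433 ± 471 FPKM in EpiLC and 1389 ± 389.9 in ESC (SD, n = 3 each), with a 95% interval of the log2 fold change from -0.88 to 0.93. For Eno1 that interval ran from -0.56 to 0.35, for Pgam1 from -0.49 to 0.40 and for Ldha from -0.59 to 0.55, so 2-fold changes of these genes lay outside it. Gapdh had 665 FPKM in E14 EpiLC, and in R1 EpiLC 757.2 with and 829 without activin A, against 1111 in E14 ESC and 2060 and 965.6 in R1 ESC replicates 1 and 2. Its log2 fold change was -0.80 (SE 0.31, limma adjusted p = 0.124) with all libraries and -0.48 (limma adjusted p = 0.0745) without replicate 1.

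**Figure D3:**
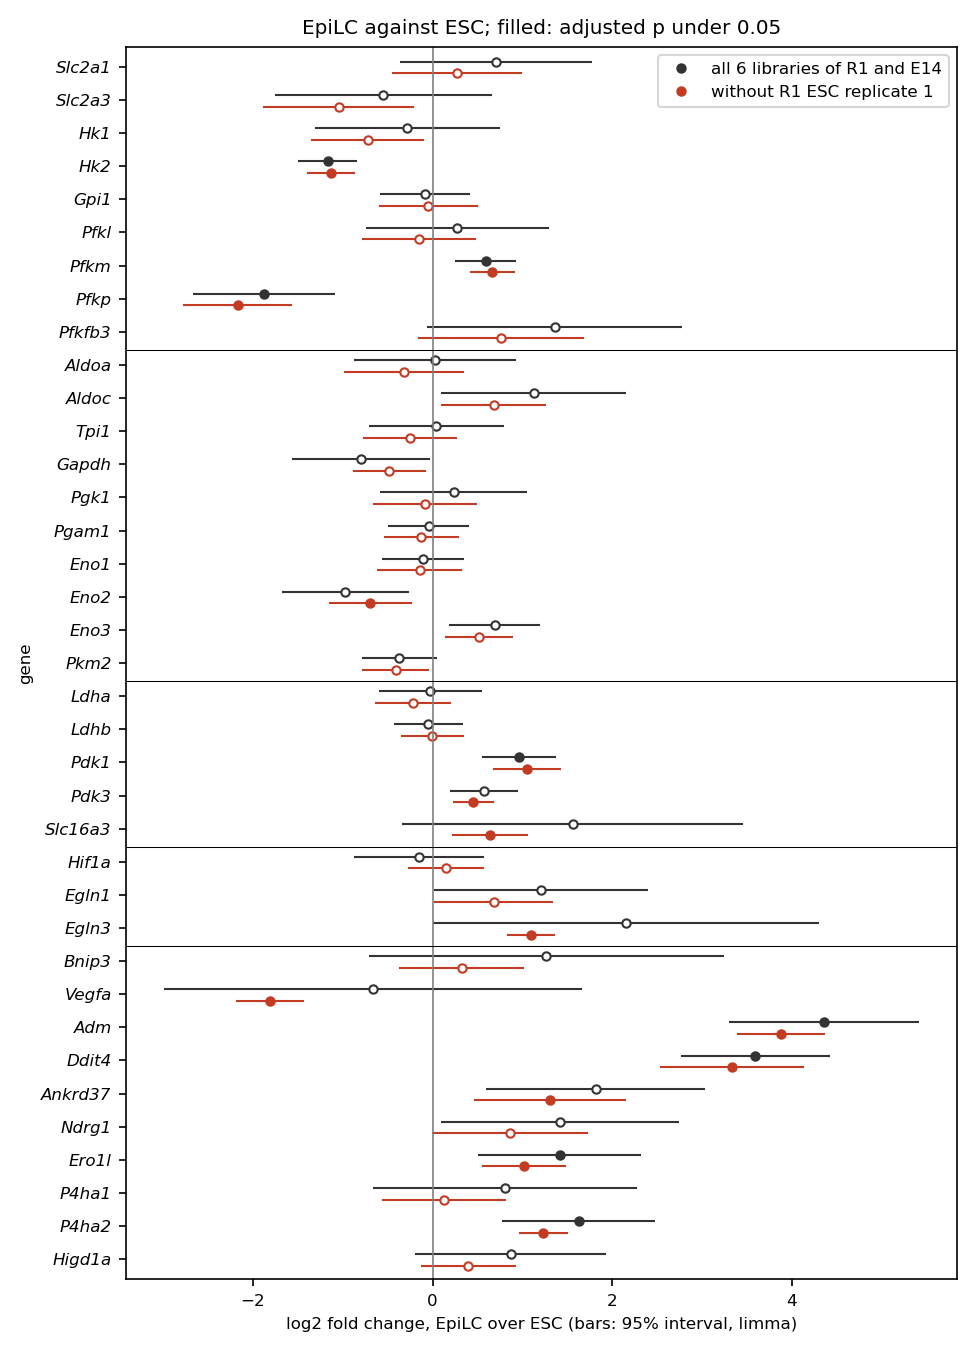
The log2 fold change of EpiLC over ESC for the 37 members, with 95% intervals from limma, for all 6 libraries of E14 and R1 (black) and without R1 ESC replicate 1 (red); filled points passed at an adjusted p under 0.05. The red intervals are shorter for most hypoxia genes, and Vegfa moves to -1.81.

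Shares among paralogous enzymes differed between states in every line for the phosphofructokinases and the main glucose transporters, and not for the hexokinases and lactate dehydrogenases. These families were chosen after their values were seen, and the shares are descriptions without a test. Pfkp supplied 8.39% of the summed phosphofructokinase FPKM in Otx2-/- EpiLC, 11.1% in E14 EpiLC, and in R1 EpiLC 16.1% with and 11.5% without activin A. In ESCs its share was 37.4% in Otx2-/-, 36.1% in E14, and 43.3% and 43.2% in R1 replicates 1 and 2. In the tetON line Pfkp supplied 14.8% with dox and 33.8% without, so the library with dox lay within the range of the EpiLCs for Pfkp. It did not for the others of the family: Pfkl supplied 52.9% with dox and 56.3% without, and Pfkm 32.2% with dox, above every EpiLC library, and 9.92% without. Pfkl, the liver-type gene, supplied between 63.6% and 74.4% in EpiLC, against 38.1% to 55.9% in the ESCs other than the tetON pair.

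Among the main glucose transporters, Slc2a1 (GLUT1) supplied 58.2% of the sum of Slc2a1 and Slc2a3 (GLUT3) in Otx2-/- EpiLC, 53.9% in E14 EpiLC, and in R1 EpiLC 48.6% with and 47.1% without activin A. In ESCs it supplied 27.1% in Otx2-/-, 30.5% in E14, and 29.6% and 27.8% in R1 replicates 1 and 2. The share was above every ESC value in each EpiLC library, although neither gene passed the test alone. Slc2a1 had a log2 fold change of 0.71 (limma adjusted p = 0.282) and Slc2a3 of -0.55 (limma adjusted p = 0.443). R1 ESC replicate 1, at 96.9 FPKM of Slc2a1 and 230.2 of Slc2a3, was low in both and did not stand apart in the share. In the tetON line Slc2a1 supplied 39.4% with dox and 30.2% without.

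For the hexokinases the lines went different ways. Hk2 supplied 79.4% of the sum of Hk1 and Hk2 in Otx2-/- EpiLC, against 72.8% in Otx2-/- ESC, and 78.9% in E14 EpiLC, against 77.1% in E14 ESC. In R1 its share was 57.0% with and 66.0% without activin A in EpiLC, against 86.8% and 73.6% in ESC replicates 1 and 2. Ldha supplied 80.0% of the lactate dehydrogenase sum in Otx2-/- EpiLC, against 81.0% in Otx2-/- ESC, and 82.5% in E14 EpiLC, against 88.5% in E14 ESC, while both R1 EpiLC libraries, at 81.6% and 81.9%, were above R1 ESC at 74.4% and 80.1%. The minor genes Eno3 and Aldoc had larger shares in EpiLC in every line, Eno3 with 2.87% to 3.06% of the enolases in EpiLC against 1.40% to 2.11% in ESC, and Aldoc with 1.95% to 3.5% of the aldolases in EpiLC against 1.19% to 1.72% in ESC.

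**Figure D4:**
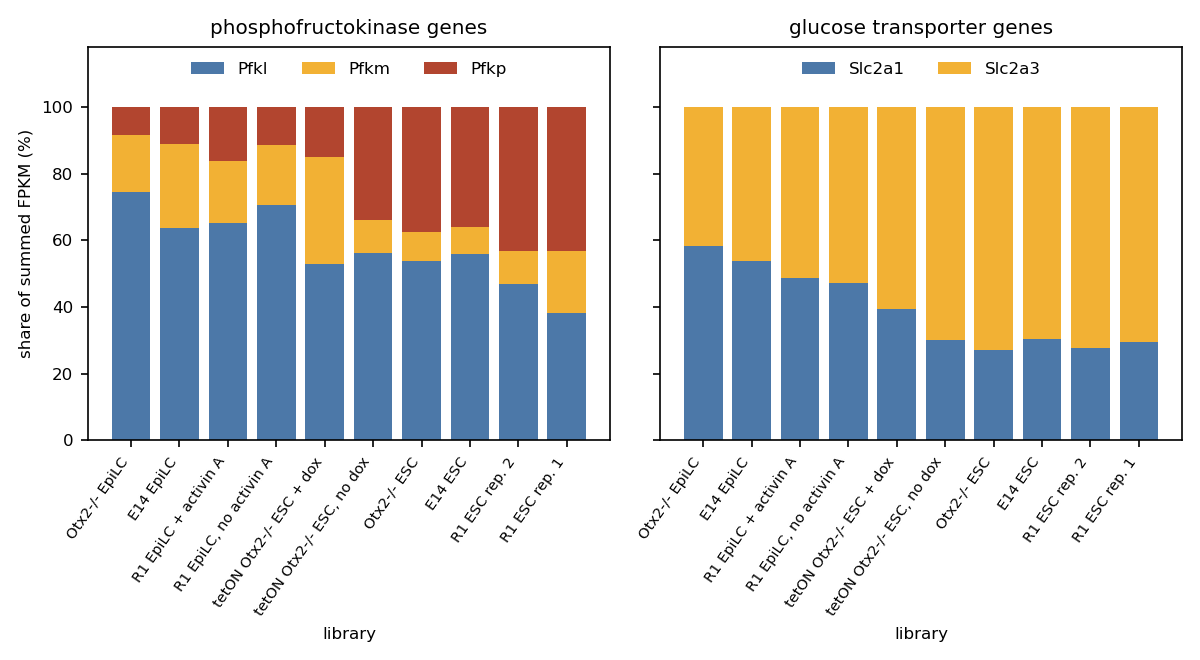
Shares of the summed FPKM, in percent, of the phosphofructokinase genes (left) and of the glucose transporter genes Slc2a1 and Slc2a3 (right) in each of the 10 libraries, with EpiLC libraries leftmost. The Pfkp share is between 8.39% and 16.1% in EpiLC, against 36.1% to 43.3% in the 4 ESC libraries outside the tetON line.

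The differentiation response was set side by side in the 3 lines. In Otx2-/-, 6 members were at least 2-fold higher in EpiLC than in ESC on the FPKM + 1 scale (6.99% of all genes) and 5 lower (8.47%). In E14, 3 were higher (6.89%) and 5 lower (9.24%). Adm, Ddit4 and P4ha2 were higher in both lines, and Ankrd37, Egln3 and Pdk1 in Otx2-/- besides. The 5 lower genes were Slc2a3, Hk1, Hk2, Pfkp and Vegfa in both. For R1, set against ESC replicate 2, 14 of the 37 members were higher and 9 lower in all 3 lines by sign alone (all genes: 30.5% and 36.7%). Set against replicate 1, 14 were higher and 5 lower (all genes: 23.9% and 32.4%).

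Over the R1, E14 and Otx2-/- lines, 10 members had all 4 EpiLC libraries above all 4 ESC libraries (all genes: 16.5%), of which 5 were hypoxia response genes. They were Eno3, Pdk1, Slc16a3, Egln1, Egln3, Adm, Ddit4, Ankrd37, Ero1l and P4ha2. In 5 members, Hk2, Pfkp, Gapdh, Eno2 and Pkm2, the EpiLC libraries lay below (all genes: 21.7%). Over the 37 members the share above was 27.0% and the share below 13.5%. Egln1, the main oxygen sensor, had 26.3 FPKM in Otx2-/- EpiLC, 19.2 in E14 EpiLC, and in R1 EpiLC 28.5 with and 34.6 without activin A, against 15.8 in Otx2-/- ESC, 17.4 in E14 ESC, and 5.14 and 14.2 in R1 ESC replicates 1 and 2.

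The lines were compared in level and in response. E14 against R1 over both states gave 0 calls among the members in limma (0.0327% of all genes rose and 0.00817% fell). An unadjusted p under 0.05 was reached by 2 of the members, against 460 of 12244 over all genes. These 2 members were Ldhb, the heart-type lactate dehydrogenase, and Pdk1. Ldhb had 209.0 FPKM in E14 EpiLC, against 242.4 with and 260.6 without activin A in R1 EpiLC, and 178.6 in E14 ESC, against 288.2 and 283.1 in R1 ESC replicates 1 and 2 (log2 difference -0.47, SE 0.16, limma adjusted p = 0.996). E14 lay below R1 in both states, and the difference did not pass.

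The E14 response minus the R1 response was above 0 for 6 of the 37 members (6551 of 12244 over all genes), with a median of -1.19 against 0.04 over all genes. Without R1 ESC replicate 1 it was above 0 for 5 of the 37, with a median of -0.64 against -0.01, and without replicate 2 the median was -1.64. No member passed in limma: 0 rose (0.123% of all genes) and 0 fell (0.204%). For the hypoxia response the difference was above 0 in 0 of 10 genes, with a median of -1.65, and without replicate 1 in 0 of 10, with a median of -0.88. Ddit4 alone had an unadjusted p under 0.05, at a log2 difference of -1.43 (SE 0.38, limma adjusted p = 0.914), and at -1.23 without replicate 1 (SE 0.20, limma adjusted p = 0.356). In R1 the response rests on both ESC replicates: without replicate 2, so that replicate 1 alone stood for R1 ESC, 6 members passed (Slc16a3, Egln3, Bnip3, Vegfa, Ankrd37 and Ndrg1), each lower in E14 (all genes: 0.385% rose and 0.655% fell). Without replicate 1, 0 members passed in either direction in limma (all genes: 0.301% rose and 0.35% fell).

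The difference lay in the EpiLC libraries as well. Both R1 EpiLC libraries were above both the E14 and the Otx2-/- EpiLC libraries in 32 of 37 members (86.5%), against 32.4% of all genes, and below them in 2, Hk2 and Hif1a (35.2% of all genes). The 32 included all 10 hypoxia response genes, 8 of 9 genes of uptake and first steps and 8 of 10 of lower glycolysis. Ndrg1 had 18.0 FPKM in Otx2-/- EpiLC and 21.3 in E14 EpiLC, against 60.8 with and 61.2 without activin A in R1 EpiLC. Aldoc, the brain-type aldolase, had 19.5 FPKM in Otx2-/- EpiLC and 22.6 in E14 EpiLC, against 62.5 and 55.1 in R1 EpiLC with and without activin A. Pfkfb3, which makes the activator of phosphofructokinase, had 10.6 FPKM in Otx2-/- EpiLC and 11.2 in E14 EpiLC, against 23.3 and 33.1 in R1 EpiLC with and without activin A. The approximate depth was 12400000 fragments in Otx2-/- EpiLC and 6200000 in E14 EpiLC, against 16000000 and 19100000 in R1 EpiLC with and without activin A, and its part in the pattern was not tested.

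In 9 members the E14 pair and the R1 libraries moved in opposite directions between EpiLC and ESC with no overlap in R1, and 11.8% of all genes did so. Slc2a1 had 154.6 FPKM in E14 EpiLC and 197.7 in E14 ESC, while R1 had 304.8 with and 346.2 without activin A in EpiLC, against 96.9 and 193.8 in ESC replicates 1 and 2. Pgk1 had 597.3 FPKM in E14 EpiLC and 880.3 in E14 ESC, while R1 had 1074 with and 1054 without activin A in EpiLC, against 535.6 and 880.4 in ESC replicates 1 and 2. The others were Pfkl, Aldoa, Ldhb, Hif1a, Bnip3, P4ha1 and Higd1a.

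**Figure D5:**
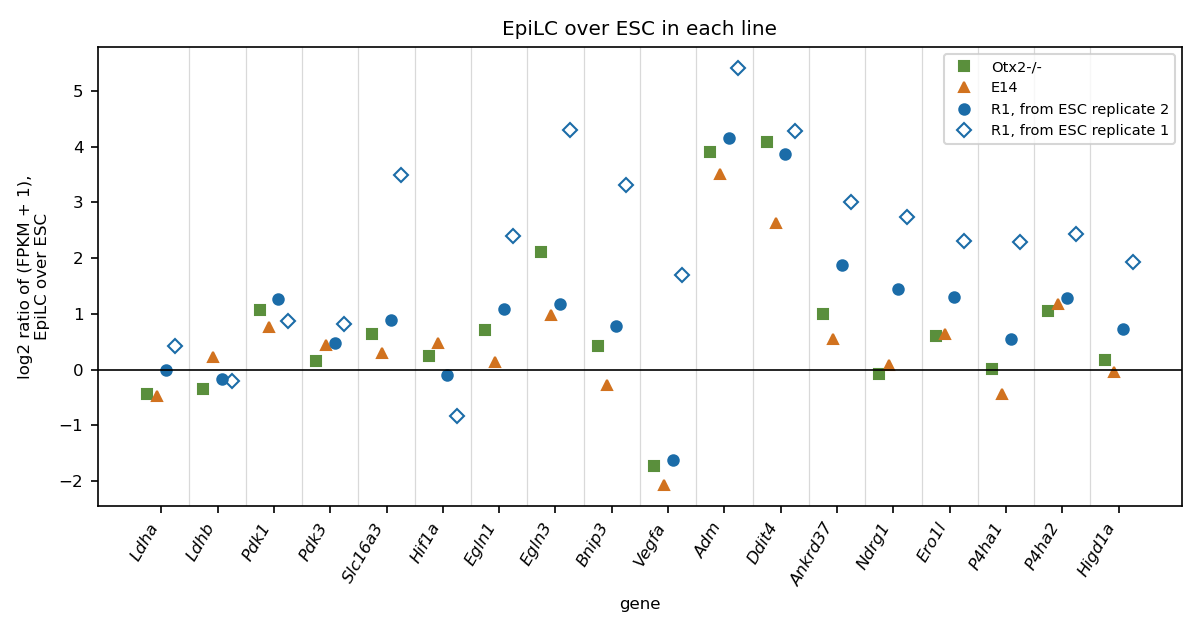
Log2 ratio of (FPKM + 1) of EpiLC over ESC for 18 members of the pyruvate and hypoxia groups in Otx2-/-, E14 and R1, with R1 set against each of its ESC replicates. Adm and Ddit4 are the highest in Otx2-/-, in E14 and in R1 set against ESC replicate 2, Vegfa is below 0 except against R1 ESC replicate 1, and for Bnip3, P4ha1 and Higd1a E14 lies below 0 while R1 lies above.

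No member differed 2-fold with activin A. Between the R1 EpiLC library with activin A and that without it, 0 of 36 members were 2-fold higher (1.07% of all genes) and 0 lower (1.07%). The log2 ratios ran from -0.49 for Pfkfb3 to 0.51 for Pfkp, with a median of -0.10. Pfkp had 38.6 FPKM with and 26.9 without activin A. There is no replicate of either library.

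Loss of Otx2 was examined in each state in limma, with a lone Otx2-/- library that is assumed to vary like the others. In EpiLC, 0 members rose (0.139% of all genes) and 0 fell (0.0244%) against E14 and R1, and 1 had an unadjusted p under 0.05. In ESC 0 rose (0.0896%) and 0 fell (0.0489%), again with 1 under 0.05. Both were Pdk3, which was singled out after its values were seen. It had 48.6 FPKM in Otx2-/- EpiLC, against 27.6 in E14 EpiLC and 30.5 and 30.1 in R1 EpiLC with and without activin A (log2 difference 0.71, SE 0.19, limma adjusted p = 0.960). In ESC it had 43.6 FPKM in Otx2-/-, against 20.2 in E14 and 16.8 and 21.6 in R1 replicates 1 and 2 (1.13, SE 0.19, limma adjusted p = 0.384), and the tetON line had 48.9 with and 38.2 without dox. All 4 libraries of Otx2-/- origin were thus above all 6 others, and neither difference passed. Those libraries come from the Otx2-/- line and the tetON line made from it, so they are not independent observations of Otx2 loss. No share of all genes is given for this separation. The fitted difference of the 10 hypoxia response genes in EpiLC had a median of -0.31 and was above 0 in 0 of 10 (6277 of 12271 over all genes). That rests on R1: Otx2-/- EpiLC was above both R1 EpiLC libraries in 0 of 10 but above E14 EpiLC in 7 of 10. No share over all genes is given for these orders of single libraries. In ESC the difference was above 0 in 7 of 10, with a median of 0.40 (5450 of 12271 over all genes), and without R1 ESC replicate 1 in 2 of 10, with a median of -0.11.

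Induced Otx2 was compared within the tetON line in ESC medium. Otx2 had 1059 FPKM with and 45.8 without dox, against 7.85 in Otx2-/- ESC and 39.9 to 150.7 in E14 and R1 EpiLC. Its level was thus already above that of Otx2-/- ESC without dox, and with dox above that of any EpiLC library. Of the 36 members that reached 5 FPKM, 4 were at least 2-fold higher with dox (6.42% of all genes), Ddit4, Pfkm, Eno3 and P4ha2, and 2 lower (5.71%), Pfkp and Ndrg1. Ddit4 had 61.6 FPKM with and 11.5 without dox, P4ha2 25.3 and 7.72, and Pfkm 75.0 and 26.6. Ddit4, P4ha2, Pfkm and Pfkp were among the genes called in EpiLC against ESC and moved in the same direction here.

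Of the other genes called in EpiLC, Adm had 0.447 FPKM with and 0.188 without dox, both below 1 FPKM. Pdk1 had 30.1 FPKM with and 42.0 without dox, and Ero1l 21.5 and 28.2, both lower with dox. Egln3 had 13.1 and 14.5. Ndrg1 had 5.15 FPKM with dox, the lowest of the 10 libraries, and 22.4 without. Eno3, the muscle enolase, had 25.3 FPKM with dox, the highest of the 10 libraries, and 9.01 without. Vegfa stood at 31.1 FPKM with and 20.2 without dox, and Hk2 at 63.4 and 96.0. Each library is single, so none of these differences has a replicate check. Without dox, the line was also set against its parent: relative to Otx2-/- ESC, 0 of 35 members were 2-fold higher (1.34% of all genes) and 0 lower (1.36%), with log2 ratios from -0.41 (Pgk1) to 0.63 (Ankrd37).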

How the data were processed

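RNA was measured by sequencing of polyadenylated RNA in 10 libraries, with no step described that marks the strand, so a gene and an overlapping antisense partner cannot be told apart. The authors deposited FPKM values per gene; TopHat, Cufflinks and the build mm9 are named in the submitters' processing notes, without versions, annotation or settings. Each table held 23112 entries; 17 exact repeats were dropped and 228 entries that shared a symbol were summed, which left 22867 symbols. Models for counts were not applied to these FPKM. Depth was approximated as the 25th percentile of the values above 0 of olfactory receptor entries, which rest on few fragments, and is rough.

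The test was two-sided and used limma 3.58.1 (R 4.3.3) with a mean-variance trend. It was run on log2(FPKM + 1) of the genes that averaged 1 FPKM or more, with Benjamini-Hochberg adjustment over all genes and a threshold of 0.05. This scale understates changes of low genes. The p-values measure the spread between few libraries, and in EpiLC that spread includes activin A. Otx2-/- was compared with E14 and R1 in a fit of 8 libraries. Pairs of single libraries were compared without a test, and a gene was counted at a 2-fold ratio of FPKM + 1 where at least 1 of the pair reached 5 FPKM. The script was tested on simulated data. The members and gene lists were chosen with earlier results of these data known. Values in full are given for members called in EpiLC against ESC and for those with the largest ratio of highest to lowest FPKM, 16 in all. They are also given for further members beside the comparison they belong to, chosen after their values were seen. Genes outside the list are named where called. Cell type markers are also named where 1 library stood apart, chosen after their values were seen. Promoter windows came from RefSeq on GRCm38.p6 and were matched by symbol or synonym, since the files' own build was not given as a genome.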

Additional observations from a re-analysis of the deposited data

Results flagged for a closer look

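In 9 genes the E14 pair moved one way between EpiLC and ESC and every R1 library the other way. That reading of the signs is itself untested, and the E14 response minus the R1 response, as a difference of log2 changes, gave a limma adjusted p of 0.914 for each of the 9. The difference was -1.59 for the glucose transporter gene Slc2a1, -1.46 for Pfkl, -1.35 for Aldoa, -1.19 for Pgk1, -2.32 for Bnip3, -1.87 for P4ha1 and -1.37 for Higd1a, all of which were higher in R1 EpiLC than in R1 ESC and lower in E14 EpiLC than in E14 ESC. It was 0.41 for Ldhb and 0.94 for Hif1a, which were lower in R1 EpiLC and higher in E14 EpiLC. Hif1a had 40.4 FPKM in E14 EpiLC and 28.7 in E14 ESC, while R1 had 27.9 with and 27.3 without activin A in EpiLC, against 49.9 and 29.7 in ESC replicates 1 and 2. These sizes rest in part on R1 ESC replicate 1. Without it the difference was -1.10 for Slc2a1, -0.96 for Pfkl, -0.97 for Aldoa, -0.83 for Pgk1, -1.05 for Bnip3, -0.999 for P4ha1, -0.77 for Higd1a, 0.40 for Ldhb and 0.58 for Hif1a, with the same sign in all 9 and limma adjusted p between 0.362 and 0.450.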

How the results depend on the processing

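Alternatives were other pseudocounts, no filter on low values, median-ratio and quantile scaling, no trend, no line covariate, other sets of libraries and leaving out each library in turn. The counts of members called in EpiLC against ESC moved most. With single libraries left out, between 2 and 10 members rose and between 0 and 4 fell. With no filter 1 fell, and with Otx2-/- added as a line and R1 ESC replicate 1 left out, a choice made after seeing the data, 12 rose and 7 fell. Calls over all genes numbered 2484 with all 6 libraries, between 398 and 4118 with 1 left out, and 3870 with Otx2-/- added as a line. Calls over all genes numbered 5 for E14 against R1 (2 to 34 over the alternatives), 40 for the difference in response (0 to 308), 20 for Otx2-/- in EpiLC (up to 216, with no filter) and 17 in ESC (up to 279, with no filter). No member that passed turned sign in any alternative. Members that had not passed did: 5 without R1 ESC replicate 1 (Pfkl, Aldoa, Tpi1, Pgk1 and Hif1a), 7 without E14 EpiLC and 7 without E14 ESC, and 5 and 6 with median-ratio and quantile scaling, of which the first brought the median over all genes to 0.02, against -0.09, and that of the members to 0.69, against 0.57. With 1 library left out, the log2 fold change ran from -1.04 to 0.059 for Slc2a3, from -0.72 to 0.18 for Hk1 and from -1.81 to 0.079 for Vegfa. It was lowest without R1 ESC replicate 1 and above 0 without E14 EpiLC or E14 ESC, where R1 alone is compared, and for Vegfa also without R1 ESC replicate 2. For the E14 response minus the R1 response, between 0 and 6 members fell with 1 library left out. Between the R1 ESC replicates, the lower members numbered 0 under both scalings and 2 with a pseudocount of 0.1; both R1 EpiLC libraries were below E14 and Otx2-/- EpiLC in 1 member under both scalings. The cause was not tested. Line was a covariate in the fit. No paired analysis was possible because only R1 ESC carries replicate numbers, so a block by number could not be made. At the approximate depth, ESC values of Adm rest on between 1.7 and 35 fragments per kilobase.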

Other observations

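Genes of the same pathways outside the 37 were described from further lists. Of 25 other hypoxia response genes tested in EpiLC against ESC, 4 rose and 3 fell (limma, E14 and R1; 9.73% and 10.6% of all genes). Gbe1, the glycogen branching enzyme, had 7.63 FPKM in E14 EpiLC, and in R1 EpiLC 11.2 with and 10.9 without activin A, against 1.92 in E14 ESC and 2.35 and 1.60 in R1 ESC replicates 1 and 2 (log2 fold change 1.88, limma adjusted p = 0.0045). The carbonic anhydrase genes Car9 (1.27) and Car12 (1.82) rose, to at most 3.89 FPKM in EpiLC against at most 0.494 in the E14 and R1 ESCs, and Mxi1, an antagonist of Myc, rose by 0.75. Kdm3a, a histone demethylase, had 26.5 FPKM in E14 EpiLC, and in R1 EpiLC 38.2 with and 34.7 without activin A, against 67.8 in E14 ESC and 77.2 and 59.2 in R1 ESC replicates 1 and 2 (-1.02, limma adjusted p = 0.0174). Wsb1 (-0.92) and the lysyl hydroxylase gene Plod1 (-0.75) also fell. Known targets of the hypoxia response thus passed in both directions.

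Ddit4 is also a target of the integrated stress response, a pathway set off by shortage of amino acids or by misfolded protein. Of 10 other genes of that pathway, 1 rose, Phgdh (1.05), and 4 fell, against 9.73% and 10.6% of all genes. Those shares of all genes also apply to the lists that follow. Asns, asparagine synthetase, had 82.2 FPKM in E14 EpiLC, and in R1 EpiLC 70.4 with and 83.0 without activin A, against 273.5 in E14 ESC and 460.0 and 330.4 in R1 ESC replicates 1 and 2. It fell by 2.13 on the log2 scale (limma adjusted p = 0.00501). Atf4 (-1.42), Trib3 (-1.12) and Ddit3 (-0.68) fell as well. Of the 8 pentose phosphate genes 0 passed in limma with all 6 libraries. An unadjusted p under 0.05 was reached by 1 of them, against 4509 of 12244 over all genes. Among 7 regulators of the hypoxia factors Hif3a rose (0.81). Of 10 other glycolysis genes Ldhc (1.10) and Pfkfb1 (0.82) rose, and Pdp1 (0.91) rose and Pdhx (-0.76) fell among 11 genes of pyruvate entry into mitochondria. Without R1 ESC replicate 1, where 15.4% of all genes rose and 18.1% fell, further genes of these lists passed. G6pdx, Rpia and Slc16a1 rose, and Ak4, Nfil3, Chac1, Herpud1, Egln2, Pfkfb2, Brp44 and Brp44l fell.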
